A study of Mus musculus with 4 samples.

Results

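Smooth muscle cells of the injured mouse carotid artery were compared between day 14 and day 7 after wire injury. The cells were chosen by their counts of unique molecular identifiers (UMIs), each of which stands for 1 captured transcript. A barcode was kept with at least 500 genes, at least 1000 UMIs, at most 10% of UMIs from mitochondrial genes, at most 1 UMI of Ptprc (the leukocyte antigen CD45), at least 1 UMI of Myh11 (smooth muscle myosin heavy chain), none of Cdh5 (endothelial VE-cadherin), and with Myh11, Acta2, Tagln and Myl9 together at 0.5% or more of its UMIs. This gate kept 22 cells at day 7 and 60 cells at day 14, in all 82 of the 6161 barcodes of the series, and it kept 6 cells before injury and 51 cells at day 3, which are not compared here.

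The study followed the healing of the artery with 4 single-cell libraries, made before injury (day 0) and at days 3, 7 and 14. All animals of the injury series were male C57BL/6 mice, 11 weeks old at surgery, in which a wire was passed through the left carotid artery. Each library is a pool of arteries from several mice, thrombosed vessels were discarded, and the tissue was digested with collagenases, hyaluronidase and DNase before dead cells were removed with magnetic beads and droplet libraries of 3′ ends were made. No genetic label marks the origin of the cells, and each day is 1 pool and 1 library, so that no difference between days can be tested and the effect of the day cannot be told apart from that of the pool or the library.

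Smooth muscle cells of the arterial media set the width of the vessel by contraction, which is driven by smooth muscle myosin sliding along actin filaments that tropomyosin, calponin and caldesmon regulate. After injury these cells can lower their contractile genes, divide, migrate and lay down collagen, a state called the synthetic or modulated phenotype, and can later regain the contractile one. Many contractile genes are controlled by serum response factor with its coactivator myocardin through a DNA motif named the CArG box.

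To show the regulatory sequence behind the genes that define these cells, the windows from 250 bases before to 50 bases after the annotated start were read from RefSeq for build GRCm38.p6. Of the 4 gate genes and 20 further contractile genes, 20 had a window, among them Acta2 and Myl9 of the gate. Acta2 (chr19:34255324-34255623, minus strand) encodes the smooth muscle actin and had the highest count of the gate genes, and Myl9 (chr2:156775214-156775513, plus strand) encodes the regulatory light chain of myosin. Vcl (chr14:20929148-20929447, plus strand) encodes vinculin, which ties actin to adhesion sites. The windows are given 5′ to 3′ on the gene's strand, with a match of the CArG box on either strand in capitals.
Acta2: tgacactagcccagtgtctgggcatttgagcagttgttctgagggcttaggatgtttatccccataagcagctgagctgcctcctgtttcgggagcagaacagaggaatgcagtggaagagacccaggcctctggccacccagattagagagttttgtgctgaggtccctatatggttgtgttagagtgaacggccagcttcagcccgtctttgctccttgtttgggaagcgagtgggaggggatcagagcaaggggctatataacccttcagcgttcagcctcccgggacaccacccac
Myl9: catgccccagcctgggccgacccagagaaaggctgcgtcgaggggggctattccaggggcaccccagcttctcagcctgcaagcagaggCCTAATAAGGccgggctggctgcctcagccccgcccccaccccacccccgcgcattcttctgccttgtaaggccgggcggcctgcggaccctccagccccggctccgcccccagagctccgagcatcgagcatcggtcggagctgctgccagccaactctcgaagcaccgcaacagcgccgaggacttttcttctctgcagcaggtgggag
Vcl: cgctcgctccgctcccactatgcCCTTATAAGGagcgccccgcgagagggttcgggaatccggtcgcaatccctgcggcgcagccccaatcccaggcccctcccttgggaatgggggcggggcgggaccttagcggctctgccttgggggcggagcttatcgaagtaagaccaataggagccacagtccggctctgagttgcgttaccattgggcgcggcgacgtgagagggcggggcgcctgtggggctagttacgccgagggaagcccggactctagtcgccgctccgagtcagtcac
The motif CCTAATAAGG began 161 bases before the start of Myl9 and CCTTATAAGG began 227 bases before that of Vcl, and these 2 of the 20 windows were the ones with an exact match, against 535 of all 32851 windows (1.63%). No exact match in the window of Acta2 says only that these letters are not in it. In the cells described here, summed over each day, Acta2 was at 13694 CPM at day 7 and 19641 CPM at day 14, Myl9 at 1711 and 3222 CPM, and Vcl at 444 and 460.1 CPM, where CPM is the gene's UMI count divided by all UMIs of the gated cells of that day and scaled to 1000000.

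The gated cells made up 22 of the 2018 barcodes that passed the cell filters at day 7, or 1.09% (exact 95% binomial interval 0.684 to 1.65%), and 60 of 880 at day 14, or 6.82% (5.24 to 8.69%). The smooth muscle cell share was thus 6.25 times as high at day 14 (3.78 to 10.7), with values of 4.54 to 10.5 under the other settings tried. In the same 2 libraries, 1582 and 268 of the filtered barcodes held at least 2 Ptprc UMIs, and the number of gated cells differed less than their share did. Of the filtered barcodes with at most 1 Ptprc UMI, the gated cells were 22 of 436 at day 7 and 60 of 612 at day 14. The share thus differed less between the days over these barcodes than over all filtered ones. At day 7, 54 barcodes without Cdh5 passed the Ptprc and Myh11 steps and 22 of them the final step, against 92 and 60 at day 14.

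The cells differed in depth between the days. At day 7 they held 1147 to 131625 UMIs (median 21975) and 600757 in all, and at day 14 they held 1215 to 62535 UMIs (median 18391) and 1201799 in all. Of the day 7 UMIs, 61.2% came from the 6 cells with more than 40000 UMIs and 21.9% from the deepest cell alone, against 19.8% from 5 such cells at day 14. For this reason 3 measures were computed for each gene, namely the ratio of summed CPM with all gated cells pooled within a day, the ratio of the mean of each cell's CPM, and the summed ratio without the cells over 40000 UMIs. A ratio with no measure named is the summed ratio. All ratios are day 14 to day 7, and the interval after a summed ratio is an exact 95% interval that covers counting error only, not the differences between cells, mice or libraries.

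The libraries of the 2 days shared 64 barcodes, 62 of which had more UMIs at day 7 (median 59875, against 662 at day 14). Of the gated cells, 4 at day 7 and 0 at day 14 carried such a barcode. These 4 cells, with 47892 to 131625 UMIs, were among the 6 deepest and held 47.3% of the gated UMIs of day 7. Medians without them are given for the gene lists, and values for a number of genes.

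**Figure D1:**
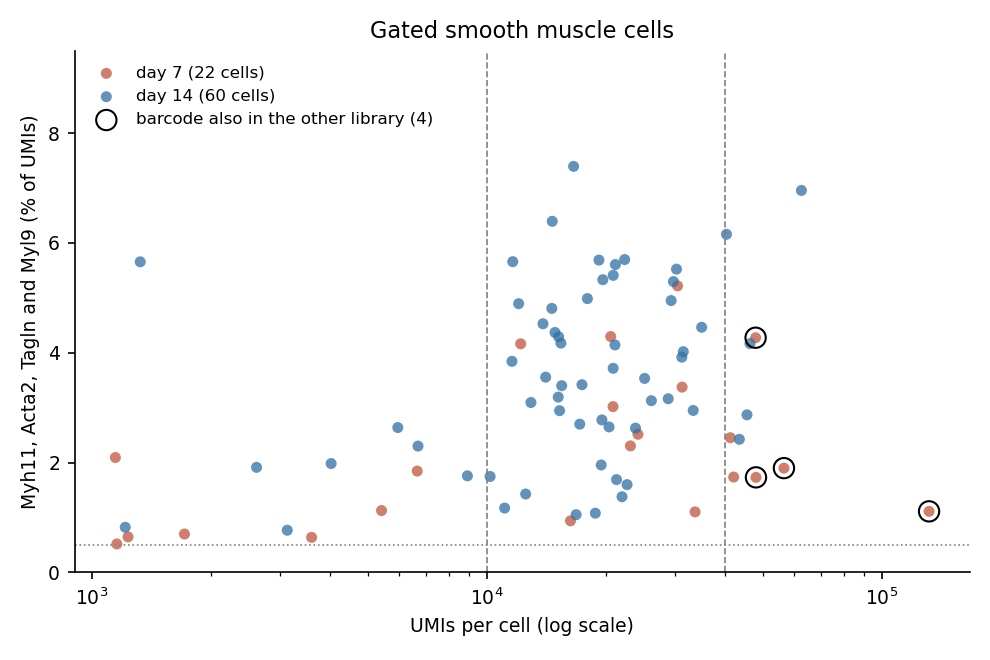
Each point is 1 gated cell, with its UMIs on a log scale on the horizontal axis and the percent of its UMIs from Myh11, Acta2, Tagln and Myl9 on the vertical axis, for day 7 (22 cells) and day 14 (60 cells). The dotted line is the 0.5% limit of the gate, the dashed lines mark 10000 and 40000 UMIs, and circles mark the 4 day 7 cells whose barcode also occurs in the day 14 library, all of them above 40000 UMIs.

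Markers of smooth muscle were high in the gated cells. A list of 7 markers outside the gate (Cnn1, Smtn, Mylk, Lmod1, Des, Synpo2 and Tpm2) summed to 4198 CPM at day 7 and 8049.6 CPM at day 14, against 359 and 199 CPM in cells without Myh11 that held Pdgfra (134 and 394 cells, called the Pdgfra cells here) and 61.3 and 19.1 CPM in cells with 2 or more Ptprc UMIs, the Ptprc cells. The 8 endothelial markers summed to 11.7 and 30.8 CPM with 4 and 3 of them at 0, and the 10 macrophage markers to 99.9 and 28.3 CPM with 2 and 3 at 0, where the Ptprc cells held 22766 and 24050.1 CPM. The neutrophil, B cell, dendritic cell, T and NK cell, Schwann cell, skeletal muscle and erythroid lists each summed to at most 16.6 CPM at either day. The 6 pericyte markers summed to 744 and 719 CPM.

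Markers of fibroblasts and pericytes were also present. In 3 gated cells the pericyte markers took a larger share of UMIs than the smooth muscle markers, with 1.69 against 0.408% and 1.04 against 0.360% in day 7 cells of 1716 and 6663 UMIs and 1.02 against 0.316% in a day 14 cell of 11092 UMIs. Pdgfra, the PDGF receptor that marks fibroblasts, had at least 1 UMI in 8 of 22 gated cells at day 7 (36.4%) and in 19 of 60 at day 14 (31.7%). With each cell thinned to 1000 UMIs it was found in 9.09 and 1.67% of gated cells, against 0.442 and 0% of the Ptprc cells, whose median depths were 9531.5 and 6902 UMIs. The 7 fibroblast markers, which include the proteoglycans Dcn and Lum, summed to 2775 and 1977 CPM. Without the cells that held Pdgfra the sums were 685 CPM in 14 cells and 1268 CPM in 41 cells, so that most of the fibroblast marker UMIs of day 7 lay in those 8 cells. Those 8 cells included the cells of 42139, 47997, 56493 and 131625 UMIs, all of them among the 6 deepest. The cells of 47997, 56493 and 131625 UMIs also carried a shared barcode. Leaving out the cells that held Pdgfra kept 241018 of the 600757 UMIs of day 7, so that this setting also removes deep cells and shared barcodes. Per cell, the fibroblast markers took a median of 0.0888% of UMIs at day 7, with 1 cell at 1.35%, and 0.101% at day 14, with a highest value of 1.93%. The fibroblast markers took a larger share of UMIs than the smooth muscle markers in 5 of the 22 cells of day 7, which held 46.6% of the gated UMIs of that day, and in 7 of the 60 cells of day 14, which held 8.74%. By a score for 2 cells in 1 droplet (the doublet score), 0 gated cells of day 7 and 5 of day 14 were among the barcodes with the highest scores. These included the pericyte-marker cell of 11092 UMIs and the day 14 cells of 21294 and 21987 UMIs, which held more fibroblast than smooth muscle markers. Their score was 0.202, against a median of 0.0332 over the gated cells of day 14. Whether a cell with both programmes is 1 cell or a pair of cells in 1 droplet was not tested further.

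The gate genes themselves chose the cells, so their levels are a description. They took 0.519 to 5.22% of a cell's UMIs at day 7 (median 1.87%) and 0.768 to 7.39% at day 14 (median 3.48%). The 3 cells nearest to the 0.5% limit lay at 0.279, 0.337 and 0.412% outside it and at 0.519, 0.639 and 0.648% inside it at day 7, and at 0.176, 0.234 and 0.374% outside and 0.768, 0.823 and 1.05% inside at day 14. The summed ratio was 2.40 for Myh11, 2.11 for Tagln (transgelin), 1.88 for Myl9 and 1.43 for Acta2. Without the cells over 40000 UMIs these ratios were 1.19, 1.53, 1.27 and 1.25, and without the 4 shared barcodes 1.51, 1.79, 1.49 and 1.34.

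Over all genes, the cells of day 14 held fewer UMIs of collagens, of collagen-folding enzymes and of dividing-cell genes, and more of tropomyosins and of several contractile proteins, in summed counts. Of 4835 genes with at least 50 UMIs over both days, 238 (4.92%) were at least 2-fold higher at day 14 and 226 (4.67%) at least 2-fold lower. By the mean of each cell's CPM 404 (8.36%) were higher and 343 (7.09%) lower, and without the cells over 40000 UMIs 238 (4.92%) were higher and 155 (3.21%) lower among these genes. Without the 4 shared barcodes 166 (3.43%) were higher and 161 (3.33%) lower, and without the deepest day 7 cell 176 (3.64%) and 167 (3.45%). In cells of 10000 to 40000 UMIs 266 (5.5%) were higher and 175 (3.62%) lower. Past 2-fold in the same direction by all 3 measures were 60 genes (1.24%) higher and 61 genes (1.26%) lower. The median log2 ratio over all tested genes was -0.00 summed and 0.10 by the mean of cells. Counts of genes past 2-fold in the lists that follow are to be read beside these shares of the same setting. For the setting without the cells with a Pdgfra UMI no such share is given.

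The contractile genes outside the gate were higher at day 14 in summed counts. Of the 20 genes on the list, 19 had a log2 ratio above 0, 5 were at least 2-fold higher and 0 lower, and the list summed to 13649 CPM at day 7 and 22356 CPM at day 14, a ratio of 1.64 (1.60 to 1.68). The 5 genes past 2-fold were Synpo2, Tpm1, Pdlim3, Cnn1 and Tpm2. Tpm1, a tropomyosin that lies along actin filaments and gates myosin binding, was at 1203 CPM at day 7 and 2708 CPM at day 14, a ratio of 2.25 (2.08 to 2.44). It was found in 20 of 22 and 58 of 60 cells, and it alone of the list passed 2-fold by all 3 measures, with 2.14 by the mean of cells and 2.22 without the deepest cells. Tpm2, the beta tropomyosin, was at 1873 CPM at day 7 and 3812 CPM at day 14, with ratios of 2.04 (1.91 to 2.17), 2.04 and 1.75 by the same 3 measures. Both tropomyosins were higher at day 14 by each of these measures, and were at 2.23 (Tpm1) and 1.71 (Tpm2) in cells of 10000 to 40000 UMIs. Without the cells with a Pdgfra UMI they were at 1.83 and 1.55, and 0 of the 20 contractile genes reached 2-fold.

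The other contractile genes were less steady. Synpo2 (synaptopodin 2, an actin bundler of the Z-disc and dense bodies) had a ratio of 2.58 (2.09 to 3.20) and Cnn1 (calponin, which restrains myosin on actin) of 2.06 (1.83 to 2.32), but without the deepest cells they were 1.44 and 1.32. Mylk, the kinase that switches on smooth muscle myosin, was at 717 CPM at day 7 and 1087 CPM at day 14, and its ratio of 1.51 became 1.04. Lmod1 (leiomodin, an actin nucleator), Flna (filamin A, an actin crosslinker) and Pdlim3 (a PDZ and LIM protein) likewise moved from 1.84, 1.76 and 2.24 to 1.11, 1.03 and 1.18. Actg2, the enteric smooth muscle actin, was the only member below 0, at 454 CPM at day 7 and 293 CPM at day 14, and was 1.78 without the deepest cells. The median log2 ratio of the list was 0.60 summed, 0.39 by the mean of cells, 0.14 without the deepest cells, 0.34 without the 4 shared barcodes and 0.06 in cells of 10000 to 40000 UMIs. In the Pdgfra cells of the same libraries, which should hold little of this programme, the median over 17 members was -0.51.

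Cell by cell, the contractile list took 0.333 to 2.73% of UMIs at day 7 (median 1.31%) and 0.494 to 3.43% at day 14 (median 2.11%). The ranges overlapped over most of their width. The difference lay in the deepest and the shallowest cells: over 40000 UMIs the medians were 0.919% in 6 cells and 2.14% in 5 cells, with the highest cell of day 7 and the lowest of day 14 both at 1.89%, and under 10000 UMIs they were 1.13% in 7 and 1.99% in 8 cells. Between 10000 and 40000 UMIs, where 47 of the 60 cells of day 14 lay, they were 2.25% in 9 cells and 2.09% in 47 cells.

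**Figure D2:**
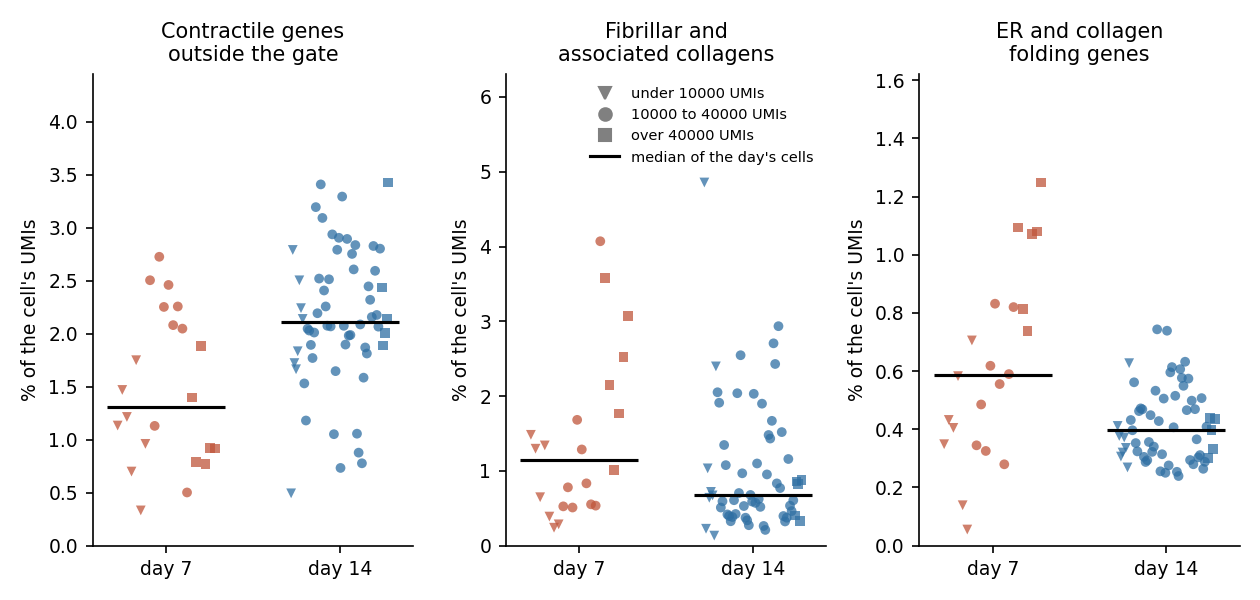
Each point is 1 gated cell, and the vertical axis gives the percent of its UMIs from the contractile genes outside the gate (left), the fibrillar and associated collagens (middle) and the ER and collagen folding genes (right). Triangles, circles and squares are cells under 10000, of 10000 to 40000 and over 40000 UMIs, ordered from left to right by depth within a day, and the line is the median of the day's cells, for example 1.31% and 2.11% for the contractile genes. The 6 cells of day 7 over 40000 UMIs have medians of 0.919, 2.34 and 1.08% in the 3 panels.

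Genes that set vascular tone were mostly above 0 in summed counts and on both sides of 0 without the deepest cells. Of 16 measured members (of 26), 14 were above 0 and 2 at least 2-fold higher in summed counts, Npr1 (a natriuretic peptide receptor) at 2.43 and Ryr2 (the calcium release channel of the sarcoplasmic reticulum) at 2.38, and without the deepest cells these were 1.02 and 1.26. Atp2a2, the SERCA pump that refills the calcium store, was at 356 CPM at day 7 and 451 CPM at day 14, and Pde3a, a cyclic nucleotide phosphodiesterase, at 251 and 325 CPM. Gucy1a1, a subunit of the nitric oxide receptor, was at 335 and 377 CPM with a ratio of 1.13 summed and 0.658 without the deepest cells. Rgs5, a G protein regulator that is also a pericyte marker, was at 444 CPM at day 7 and 262 CPM at day 14, in 7 and 24 cells, with ratios of 0.590 summed, 0.312 by the mean of cells and 0.921 without the deepest cells. At day 7, 56.9% of its UMIs lay in 1 cell, and in cells of 10000 to 40000 UMIs its direction turned, with 4.71 CPM at day 7, from 1 UMI, and 332 CPM at day 14. For the whole list the median log2 ratio was 0.43 summed and -0.11 without the deepest cells.

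No measured transcription factor of the contractile programme reached 2-fold in summed counts. Myocd (myocardin) was at 99.9 CPM at day 7 and 121 CPM at day 14, with a ratio of 1.22 (0.895 to 1.67) that included 1. Mef2a, a MADS box factor of muscle, was at 153 and 281 CPM, with ratios of 1.84 (1.45 to 2.34) summed, 1.59 by the mean of cells and 1.51 without the deepest cells. Its relative Mef2c was at 1.41, 0.860 and 0.946, and Gata6, a GATA factor of the vessel wall, at 0.858, 1.12 and 0.918. Mef2d, of the same family as Mef2a, was at 1.55 summed, 2.03 by the mean of cells and 1.41 without the deepest cells, and was the 1 member past 2-fold by any of these. Over the 6 measured members the median was 0.39 summed, 0.60 by the mean of cells and -0.07 without the deepest cells.

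Among factors linked to modulation, Cebpb, a leucine zipper factor of inflammation, was at 176 CPM at day 7 and 250.5 CPM at day 14 and its ratio was 1.42 (1.13 to 1.79) summed, 1.75 by the mean of cells and 1.98 without the deepest cells. Twist1, a mesenchymal helix-loop-helix factor, was at 11 and 45 UMIs, a ratio of 2.04 (1.04 to 4.38), and was past 2-fold by all 3 measures, with no UMI at day 7 outside the cells over 40000 UMIs. Klf4, which can repress contractile genes, was at 136 and 176 CPM, 1.29 summed but 0.713 by the mean of cells. Stat3 and the homeobox factor Prrx1 had summed ratios of 0.969 and 0.711, and Runx1 was at 0.833 summed, 0.431 by the mean of cells and 1.25 without the deepest cells, from 21 and 35 UMIs. Of the 6 measured factors of this list 1 was at least 2-fold higher in summed counts, with a median log2 ratio of 0.16. When the cells with a Pdgfra UMI were left out, 3 were at least 2-fold higher and 0 lower, with a median of 1.15. The sum over the 9 genes of the list was nonetheless close between the days there, at 564 CPM at day 7 and 598 CPM at day 14. Of the Notch genes, Heyl, a transcriptional target of the pathway in mural cells, was at 58.3 and 141 CPM, a ratio of 2.43 (1.68 to 3.60) that was 1.69 by the mean of cells and 1.91 without the deepest cells. Hes1, another target, and the ligand gene Jag1 were at 0.840 and 0.879 summed but 2.45 and 2.37 without the deepest cells, and Hey2 at 1.09 and 0.923.

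Fibrillar collagens were lower at day 14, and the difference was largest in the deep cells. Of 11 measured genes of the list, 5 were at least 2-fold lower in summed counts and 0 higher, 1 (Col14a1, a fibril-associated collagen) was above 0, and none was past 2-fold by all 3 measures. The list summed to 20216 CPM at day 7 and 9322 CPM at day 14, a ratio of 0.461 (0.449 to 0.473). Col1a1 and Col1a2, the chains of type I collagen, were at 6004 and 5766 CPM at day 7 and at 1985 and 2488 CPM at day 14. Their ratios were 0.331 (0.314 to 0.348) and 0.431 (0.411 to 0.453) summed, 0.608 and 0.719 by the mean of cells, and 0.701 and 0.758 without the deepest cells. Both chains were lower at day 14 by each measure. Col3a1, the type III chain, had a ratio of 0.555 (0.529 to 0.583) and 0.798 without the deepest cells, and Col5a2, a type V chain that nucleates fibrils, 0.453 (0.401 to 0.511) and 0.576. Col12a1, another fibril-associated collagen, was at 56 and 13 UMIs (ratio 0.116, interval 0.0582 to 0.215) and at 0.525 without the deepest cells, and Col8a1, a short-chain collagen, at 0.329 summed and 1.21 without the deepest cells.

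The median log2 ratio of the collagens was -0.85 summed, -0.36 by the mean of cells, -0.32 over the same genes without the deepest cells, -0.82 without the 4 shared barcodes and -0.65 without the cells that held Pdgfra. In the Pdgfra cells of the same libraries it was -0.04 over 15 genes, and the list summed there to 66570.2 and 76443 CPM. Per smooth muscle cell the collagens took 0.240 to 4.07% of UMIs at day 7 (median 1.15%) and 0.134 to 4.86% at day 14 (median 0.675%). The medians were 2.34 and 0.828% over 40000 UMIs, 0.780 and 0.624% from 10000 to 40000, and 0.648 and 0.696% under 10000. Within a day, cells with more contractile UMIs tended to hold fewer collagen UMIs, with a Spearman's rho of -0.37 over the 22 cells of day 7 and -0.38 over the 60 cells of day 14, as a description, since both are shares of 1 total in cells of 1 library.

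Genes of the endoplasmic reticulum (ER) that fold and modify collagen were lower with them. All 20 measured members were below 0 and 7 at least 2-fold lower in summed counts, and the list summed to 8626 and 4120.5 CPM, a ratio of 0.478 (0.459 to 0.497). Serpinh1 (HSP47, the chaperone of procollagen) was at 1884 CPM at day 7 and 648 CPM at day 14, with ratios of 0.344 (0.314 to 0.377), 0.540 by the mean of cells and 0.669 without the deepest cells. Hspa5 (BiP, the main chaperone of the ER) was at 1132 and 499 CPM, with 0.441, 0.586 and 0.675. Sdf2l1, an ER protein that works with BiP, passed 2-fold by all 3 measures, at 84.9 and 20.0 CPM, 0.461 by the mean of cells and 0.460 without the deepest cells (summed ratio 0.235, interval 0.138 to 0.389). Hsp90b1 (GRP94) and Calr (calreticulin), lumenal chaperones, had summed ratios of 0.557 and 0.572, but 0.892 and 1.01 without the deepest cells. Without the 4 shared barcodes the list summed to 6509.9 CPM at day 7 and 3 genes were at least 2-fold lower. Over its members the median log2 ratio was -0.89 summed and -0.25 without the deepest cells, and per cell the list took a median of 0.586% at day 7 and 0.397% at day 14, with 1.08 and 0.397% over 40000 UMIs and 0.556 and 0.409% from 10000 to 40000.

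The basement membrane, the sheet of type IV collagen and laminin that surrounds each smooth muscle cell, was mostly above 0 in summed counts. Of 11 measured genes, 7 were above 0, 2 at least 2-fold higher and 1 lower. Col18a1, whose fragment is endostatin, was at 697 CPM at day 7 and 1405 CPM at day 14 (ratio 2.01, interval 1.81 to 2.25), and Col4a5 at 153 and 312 CPM, and without the deepest cells their ratios were 1.32 and 1.09. Col4a1 and Col4a2, the common type IV chains, had ratios of 0.963 and 1.36, and Hspg2 (perlecan) of 0.908. Nid1 (nidogen), which links laminin to type IV collagen, was the 1 gene past 2-fold lower, at 113 and 55.7 CPM, and was 1.11 without the deepest cells. Lamb1, a laminin beta chain under the 50 UMI limit, had 38 UMIs at day 7 and 3 at day 14 (ratio 0.0395, interval 0.00779 to 0.124), while its relative Lamb2 was at 249.7 and 460.1 CPM. Over the list the median log2 ratio was 0.39 summed and 0.06 without the deepest cells, and without the cells with a Pdgfra UMI it was -0.17.

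Elastin, the rubber-like protein of the medial lamellae, was abundant at both days. Eln was at 8379 CPM at day 7 and 8740.2 CPM at day 14, a ratio of 1.04 (1.01 to 1.08), and Mgp (matrix Gla protein, an inhibitor of calcification) had still more UMIs, at 14252 CPM at day 7 and 15921 CPM at day 14 (ratio 1.12, interval 1.09 to 1.15). Without the cells with a Pdgfra UMI the ratios of Eln and Mgp were 1.68 and 2.19. Fbln5, Mfap4 and Lox, which assemble and crosslink elastic fibres, were at 851, 727 and 816 CPM at day 7 and 952, 801 and 524 CPM at day 14. The 1 gene of the list past 2-fold higher by all 3 measures was Ltbp4, a latent TGF-beta binding protein that guides fibulin-5 onto elastic fibres. It was at 163 CPM at day 7 and 606 CPM at day 14, in 16 of 22 and 57 of 60 cells, with ratios of 3.71 (3.00 to 4.63) summed, 2.92 by the mean of cells, 2.08 without the deepest cells, 2.46 without the shared barcodes and 1.95 from 10000 to 40000 UMIs. In the Pdgfra cells Ltbp4 was at 266 and 548 CPM. Its relatives Ltbp1, Ltbp2 and Ltbp3 had summed ratios of 1.24, 0.587 and 1.26, and 0.689, 4.23 and 1.07 without the cells with a Pdgfra UMI.

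Several matrix genes that were lower at day 14 in all gated cells were nearer to a ratio of 1, or above it, without the cells with a Pdgfra UMI. Timp1, an inhibitor of metalloproteinases, was at 626 CPM at day 7 and 125 CPM at day 14, with ratios of 0.199 (0.164 to 0.242), 0.245 and 0.301 by the 3 measures, and 0.734 without the cells with a Pdgfra UMI. Fbln2 (fibulin-2) and Thbs1 (thrombospondin-1, an activator of TGF-beta) were 0.218 and 0.248 summed and were past 2-fold lower by all 3 measures. Without the cells with a Pdgfra UMI they were 1.14 and 4.39, from only 13 and 8 UMIs at day 7. The proteoglycans Lum and Dcn were at 1458 and 692 CPM at day 7 and 729 and 331 CPM at day 14, and without those cells they were at 12.4 and 41.5 CPM at day 7, from 3 UMIs in the case of Lum, and at 334 and 131 CPM at day 14, so that their direction turned. Fn1 (fibronectin) was at 2563 CPM at day 7 and 1767 CPM at day 14, a ratio of 0.689 (0.645 to 0.736) that stayed below 1 by the mean of cells (0.618), without the deepest cells (0.522) and without the cells with a Pdgfra UMI (0.574). Sparc, a collagen-binding glycoprotein, was 0.776 summed and 1.38 without the deepest cells, and Bgn (biglycan) and Ctgf (connective tissue growth factor) were 1.05 and 0.793.

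Of 8 measured genes linked to modulated smooth muscle, 5 were at least 2-fold lower (Spp1, Timp1, Vcam1, Dcn and Lum) and 1 (Lgals3) was above 0, with a median log2 ratio of -1.03. Without the cells with a Pdgfra UMI 1 (Spp1, from 4 and 0 UMIs) was at least 2-fold lower and 2 (Dcn and Lum) at least 2-fold higher, with a median of -0.25. Vcam1, an adhesion molecule for leukocytes, had 338 and 229 UMIs (ratio 0.339, interval 0.285 to 0.402) and 0.778 without the deepest cells. The study named Col1a1, Col1a2, Fn1, Lgals3 and Cebpb as genes of an intermediate cell state reported elsewhere, termed SEM for its stem, endothelial and monocyte genes. It picked them out for a cell population of these samples, so that they are not independent evidence of a direction. Of these 5, the 2 collagen chains were at least 2-fold lower in summed counts, Fn1 was lower at 0.689, and Lgals3 (galectin-3) at 178 CPM at day 7 and 193 CPM at day 14 and Cebpb were above 1, at 1.08 (0.858 to 1.38) and 1.42. Without the deepest cells Lgals3 was at 1.72 and Cebpb at 1.98. None of the 5 passed 2-fold by all 3 measures.

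Of 14 measured PDGF and TGF-beta genes, 2 were at least 2-fold higher and 2 at least 2-fold lower in summed counts. Over all measured genes the shares were 4.92% higher and 4.67% lower. Tgfb2 and Tgfb1, ligands of the TGF-beta receptors, were lower by all 3 measures. Tgfb2 was at 321 CPM at day 7 and 137 CPM at day 14, with ratios of 0.427 (0.345 to 0.529), 0.444 and 0.377, and 0.553 without the cells with a Pdgfra UMI. Tgfb1 was at 78.2 and 30.0 CPM, with 0.383 (0.241 to 0.604), 0.282 and 0.409, from 47 and 36 UMIs. Pdgfd, a ligand of the PDGF receptor beta, and Tgfbr3, a TGF-beta coreceptor, were higher at 2.77 and 2.22 but 1.25 and 1.19 without the deepest cells. Pdgfrb, the receptor by which PDGF drives smooth muscle growth, was at 199.7 CPM at day 7 and 202 CPM at day 14, a ratio of 1.01 (0.810 to 1.27), Pdgfa was at 0.863, and Inhba (activin A) at 1.18, or 0.670 without the deepest cells.

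Of the proteases and their inhibitors, Mmp14, a membrane-bound collagenase, was at 229.7 and 62.4 CPM (ratio 0.272, interval 0.202 to 0.362), and 0.533 without the deepest cells. Serpine2 (protease nexin-1) was at 448 CPM at day 7 and 1199 CPM at day 14, 2.68 (2.35 to 3.06) summed but 1.05 by the mean of cells and 1.33 without the deepest cells. Timp2 and Timp3, which inhibit metalloproteinases and in the case of Timp3 bind to the matrix, were at 0.941 and 1.25, and without the deepest cells at 1.06 and 0.638.

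Genes of dividing cells were lower at day 14, and at day 7 most of their UMIs lay in few cells. The 25 cell cycle genes summed to 1385 CPM at day 7 and 167 CPM at day 14, a ratio of 0.121 (0.103 to 0.141), and to 377 and 166 CPM without the deepest cells. At day 7 the sum was 341 CPM without the 4 shared barcodes and 548 CPM without the deepest cell. Without the cells with a Pdgfra UMI it was 236 CPM at day 7 and 153 CPM at day 14. Of the 8 measured members, Pcna, Mcm6 and Hmgb2 alone had more than 3 UMIs on either day there, so that no ratio of the mitotic members could be given without those cells. Mki67, which marks cycling cells, had 55 UMIs in 4 cells at day 7 and 0 at day 14, which is at least 36.7-fold lower when the 0 is set at its limit of 3 counts. Birc5 (survivin) and Ube2c, which act in mitosis, had 54 and 80 UMIs in 6 and 6 cells at day 7 and 0 at day 14, at least 36.0-fold and 53.3-fold lower. Cenpf, a kinetochore protein, had 104 UMIs at day 7, all in 1 cell, and 1 at day 14 (ratio 0.00481, interval 0.000121 to 0.0274). The deepest cell of day 7, with 131625 UMIs and a barcode shared with the day 14 library, held these genes at 0.437% of its UMIs, against a median of 0.0139% over the 22 cells. The medians of the days were close, at 0.0139 and 0.0152%, and the highest cell of day 14 was at 0.0823%. The helicase subunit Mcm6, used in DNA replication, was at 46.6 and 42.4 CPM, and Hmgb2, a chromatin protein of growing cells, at 0.247 summed, 0.861 without the deepest cells and 1.03 without the shared barcodes.

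Immediate early genes, which respond within minutes to stress and to tissue digestion, were higher at day 14 in summed counts and not by the mean of cells. All 16 measured members were above 0 and 4 (Btg2, Zfp36, Socs3 and Fos) at least 2-fold higher, but the median log2 ratio was 0.80 summed, -0.10 by the mean of cells and 0.25 without the deepest cells. Fos, a subunit of the AP-1 factor, was at 1245 CPM at day 7 and 2533 CPM at day 14, with ratios of 2.03 (1.88 to 2.21), 1.35 and 1.22. Its partner Jun was at 1.77, 0.822 and 1.15, and Egr1 at 1.45, 0.808 and 0.914. Per cell the list took a median of 0.749% at day 7 and 0.807% at day 14, with 0.369 and 0.926% over 40000 UMIs. The Ptprc cells of the same libraries held 11081 and 16968 CPM of these genes and the Pdgfra cells 7497 and 11820 CPM, so that other cells of the library moved the same way.

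Inflammatory genes were lower at day 14 in summed counts. Of 9 measured members all were below 0 and 6 at least 2-fold lower, and the 17 genes of the list summed to 2530.1 and 899 CPM. With the deepest cells left out, 2 members were at least 2-fold higher and 4 at least 2-fold lower. The numbers were the same in cells of 10000 to 40000 UMIs and without the cells with a Pdgfra UMI, but the genes were not. Without the cells with a Pdgfra UMI the 2 higher genes were C3 and Cxcl12. Both were lower at day 14 without the deepest cells and in cells of 10000 to 40000 UMIs. The median log2 ratio was -1.43 summed and -0.56 without the deepest cells. From 10000 to 40000 UMIs the per-cell median was 0.0164% of UMIs at day 7 and 0.0284% at day 14. A single cell held 28.6% of the list's UMIs at day 7 and 60.8% at day 14. Lcn2 (lipocalin-2, an iron-binding protein of acute inflammation) was at 614 CPM at day 7 and 80.7 CPM at day 14, past 2-fold by all 3 measures (0.131, 0.176 and 0.230), but it was found in 6 cells at day 7 and in 1 cell at day 14. C3, the central complement component, and Cxcl12, a chemokine of stromal cells, were 0.208 and 0.385 summed, and without the cells with a Pdgfra UMI they were at 4.15 and 29.0 CPM at day 7, from 1 UMI in the case of C3, and at 11.8 and 77.4 CPM at day 14. Nfkbia, an inhibitor and target of NF-kappa-B, was at 371 and 137 CPM, with a ratio of 0.370 that was 1.58 without the deepest cells. Of the interferon and MHC class I genes, Isg15 was at 56 UMIs in 5 cells at day 7 and 7 UMIs at day 14 (ratio 0.0625, interval 0.0240 to 0.137). Ifitm3, an antiviral membrane protein, and B2m, the light chain of MHC class I, were 0.422 and 0.645 summed, and without the deepest cells they were at 399 and 412 CPM at day 7 and 439 and 514 CPM at day 14. The median of this list was -0.63 summed and 0.70 without the deepest cells, which turned its sign. The macrophage markers, given above, were also lower at day 14, with a ratio of 0.283 (0.180 to 0.439) and 40 of 60 cells at 0, and their part in these values was not tested.

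**Figure D3:**
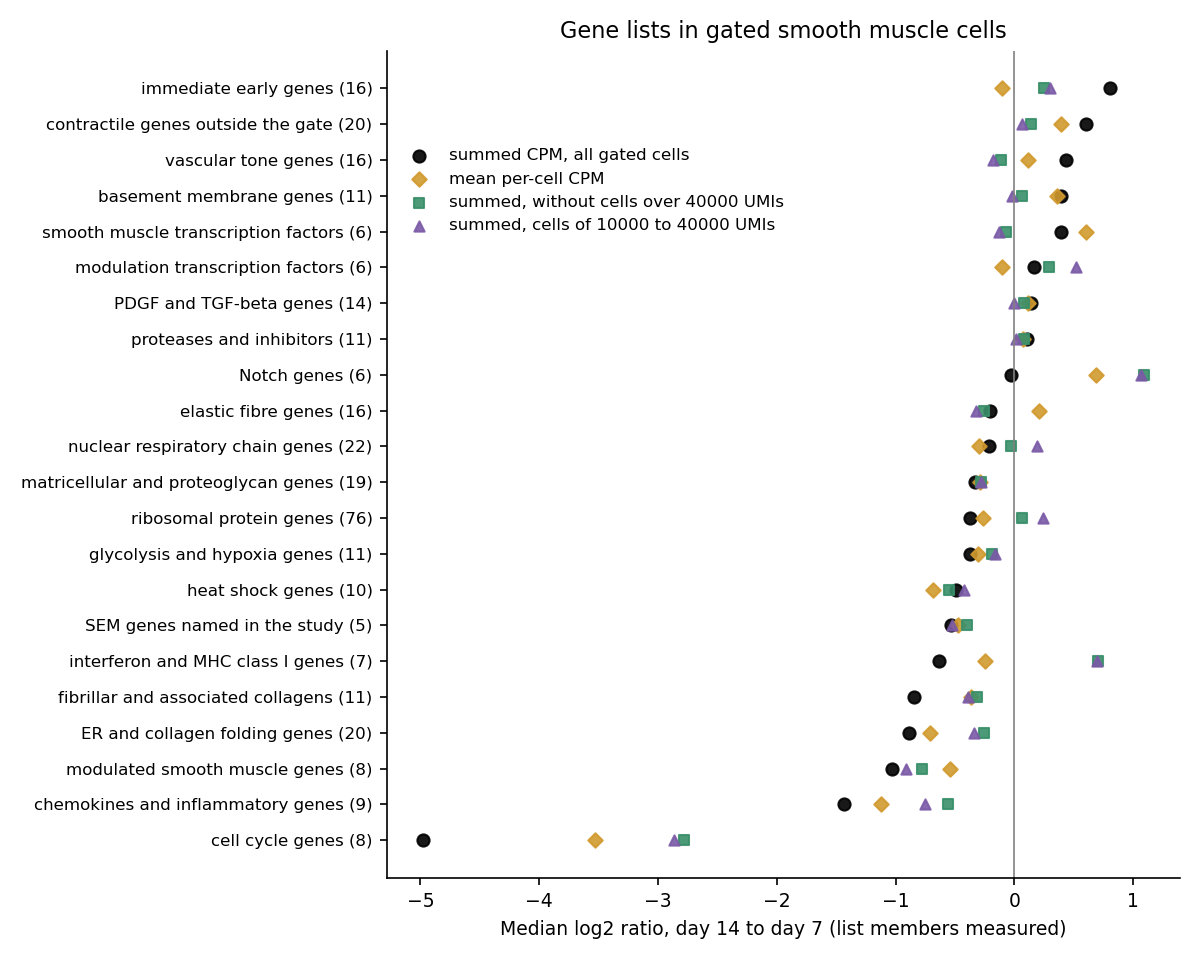
The horizontal axis is the median log2 ratio, day 14 to day 7, over the measured members of each gene list (their number in parentheses), by summed CPM, by the mean of each cell's CPM, without the cells over 40000 UMIs, and in cells of 10000 to 40000 UMIs, with a gene at 0 on 1 day set at 3 counts, over the same genes except that Cenpf had no value where the deepest cells are left out. Lists at the top, such as the contractile genes (0.60 summed and 0.06 in cells of 10000 to 40000 UMIs), move towards 0 when the deepest cells are left out, and the cell cycle list lies lowest at -4.98.

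Without the 4 shared barcodes the medians of the lists moved by different amounts. Over the same genes, less Cenpf for the cell cycle list, the median log2 ratio was 0.34 for the contractile genes, 0.04 for the vascular tone genes, 0.22 for the smooth muscle transcription factors and 0.01 for the basement membrane genes, all nearer to 0 than with all cells. It was -0.82 for the collagens, -0.64 for the ER genes, -2.66 for the cell cycle genes and -1.33 for the inflammatory genes, also nearer to 0, and -1.28 for the modulated smooth muscle genes and -0.71 for the SEM genes, farther from 0. For the other lists it was 0.31 (modulation transcription factors), -0.29 (elastic fibre genes), -0.35 (matricellular and proteoglycan genes), -0.16 (proteases and inhibitors), 0.02 (PDGF and TGF-beta genes), 0.17 (Notch genes), 0.43 (immediate early genes) and -0.48 (interferon and MHC class I genes). With all cells these medians were 0.16, -0.21, -0.34, 0.10, 0.14, -0.03, 0.80 and -0.63 in the same order, so that the sign turned for the proteases and inhibitors and for the Notch genes. The heat shock, glycolysis and hypoxia, respiratory chain and ribosomal protein genes were at -0.43, -0.27, -0.09 and -0.06 without the shared barcodes. Of the contractile genes 1 was at least 2-fold higher without these cells, and of the collagens 3 were at least 2-fold lower.

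Among the genes past 2-fold by all 3 measures, the 12 with the highest summed ratio had few UMIs at day 7. Tcap (telethonin, a protein of the Z-disc known from striated muscle) had 3 UMIs in 2 of 22 cells at day 7 and 212 UMIs in 30 of 60 cells at day 14, a ratio of 35.3 (11.9 to 173), with 35.8% of the day 14 UMIs in 1 cell. Its ratio was 9.69 without the deepest cells, 9.06 from 10000 to 40000 UMIs and 18.6 without the shared barcodes. With each cell thinned to 1000 UMIs it was found in 0 and 10% of cells, against 0.0632 and 0% of the Ptprc cells, and the Pdgfra cells held 0.438 and 0.265 CPM. Igfbp5, which binds insulin-like growth factors, had 7 and 249 UMIs (ratio 17.8, interval 8.50 to 44.7), with 10.9 without the deepest cells and 6.57 from 10000 to 40000 UMIs, and Comp (thrombospondin-5, a matrix glycoprotein) 5 and 75 UMIs (ratio 7.50, interval 3.07 to 23.8), of which 45.3% at day 14 lay in 1 cell. Both were present in the Pdgfra cells, at 176 and 161 CPM at day 7 and 1090.2 and 375 CPM at day 14. Without the gated cells that held Pdgfra, Igfbp5 was at 20.7 and 240.0 CPM and Comp at 4.15 and 53.8 CPM. Pcp4l1, a small relative of a calmodulin regulator, had 7 and 134 UMIs (ratio 9.57, interval 4.52 to 24.3), was at 3.14 by the mean of cells, and had 0 and 0.265 CPM in the Pdgfra cells.

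The others were Smim5 at 10.2, Gm11627 at 9.62, Fam212b at 5.30, Tceal3 at 5.17 and the genes Pcsk5 (a proprotein convertase) at 5.25, Phkg1 (the catalytic subunit of phosphorylase kinase) at 4.90, Gdf10 (a ligand of the TGF-beta family) at 4.14 and Ubxn2a (a p97 cofactor) at 4.12 (2.26 to 8.25). Each of these had 4 to 12 UMIs at day 7, so that the lower bound of the interval, 1.89 for Gdf10 and 1.96 for Phkg1, was below 2 for some of them. Without the deepest cells the ratios were 3.87 for Smim5, 15.7 for Gm11627, 4.96 for Fam212b, 2.32 for Tceal3, 2.06 for Pcsk5, 4.84 for Phkg1, 2.81 for Gdf10 and 2.27 for Ubxn2a, and Ubxn2a was at 1.86 without the cells with a Pdgfra UMI.

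The 12 lowest rested on few cells of day 7. Each was found in 2 to 8 of the 22 cells there, with 35.6 (Selp) to 90.6% (Spp1) of its UMIs in 1 cell. Cthrc1, a secreted protein of activated fibroblasts and injured arteries, had 228 UMIs at day 7 and 1 at day 14, a ratio of 0.00219 (5.53e-05 to 0.0123). Without the deepest cells it was at 38.6 and 1.04 CPM, and without the shared barcodes the ratio was 0.0240, from 1 UMI at day 14. The Pdgfra cells held it at 1562 and 711 CPM. Spp1 (osteopontin) had 85 and 1 UMIs (ratio 0.00588, interval 0.000147 to 0.0337), and was at 539 and 238 CPM in the Ptprc cells. Selp (P-selectin, an endothelial adhesion molecule) had 104 and 2 UMIs (ratio 0.00961, interval 0.00115 to 0.0356), Clca3a2 150 and 0, and Hp (haptoglobin) 374 and 20 (ratio 0.0267, interval 0.0161 to 0.0419), with the UMIs of Hp in 2 cells at day 7 and 2 at day 14. The remaining 7 were the mitotic genes Ube2c, Cenpa, Mki67, Birc5, Hmmr, Tpx2 and Cks2, with 51 to 108 UMIs at day 7 and 0 to 9 at day 14. Without the cells with a Pdgfra UMI each of the 12 genes had 0 to 5 UMIs at day 7, 2 in the case of Cthrc1 and 0 for Selp, Clca3a2, Hp and Mki67. Cks2, which had the most UMIs of the mitotic genes, was at 0.0417 summed, 0.148 without the shared barcodes and 0.442 without the cells with a Pdgfra UMI.

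**Figure D4:**
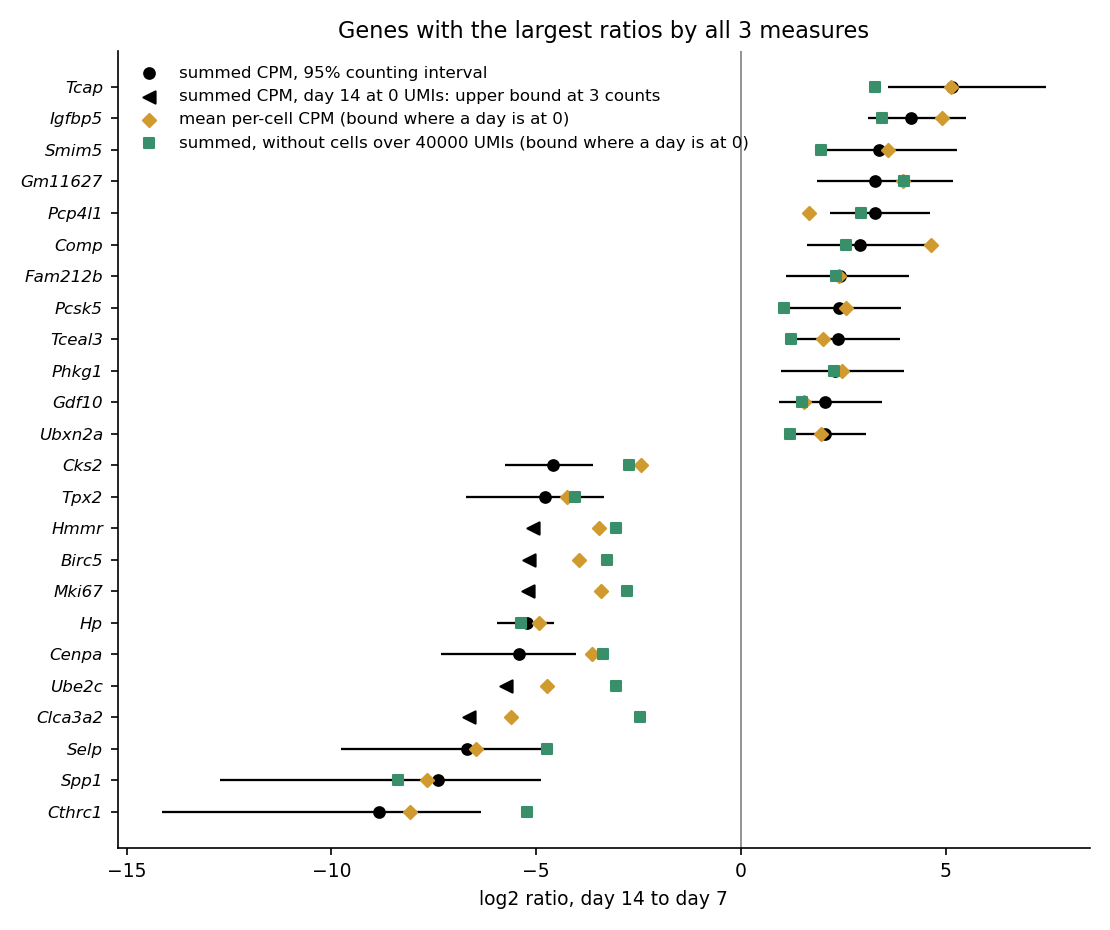
The horizontal axis is the log2 ratio, day 14 to day 7, for the 12 highest and 12 lowest genes past 2-fold by summed CPM (black, with 95% counting intervals), by the mean of each cell's CPM (diamonds) and by summed CPM without cells over 40000 UMIs (squares), with bounds at 3 counts where a day was at 0. For the genes lower at day 14, from Cks2 (0.0417) to Cthrc1 (0.00219) as summed ratios, most squares lie nearer to 0 than the black points.

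Some of the genes past 2-fold by all 3 measures were found in at least 8 cells of each day, which is a low limit. Dclk1, for example, was found in 10 of 22 cells at day 7 and in 8 of 60 at day 14. Without the cells over 40000 UMIs, Dclk1 and P3h1 were each found in 4 cells of day 7. With the added limits of at least 8 cells at each day and no cell with 50% or more of the UMIs of the higher day, chosen after the values were seen, 23 of the 60 higher and 42 of the 61 lower genes remained, and 16 and 35 of these were also past 2-fold in cells of 10000 to 40000 UMIs. The limit of 8 cells takes a larger share of the 22 cells of day 7 than of the 60 cells of day 14 and so removes more of the genes that were low at day 7, and the counts of the directions are not compared. Of the 60 higher genes none drew 50% or more of its day 14 UMIs from 1 cell, and 17 of the 61 lower genes drew as much from 1 cell of day 7. The deepest cell held 21.9% of the gated UMIs at day 7 and 5.20% at day 14, so that these counts are not compared either.

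Among the broadly held genes higher at day 14, Cdkn1a (p21, which halts the cell cycle) was at 51.6 CPM at day 7 and 196 CPM at day 14, with ratios of 3.79 (2.60 to 5.70), 4.35 by the mean of cells, 2.74 without the deepest cells and 2.58 from 10000 to 40000 UMIs. It was found in 9 of 22 and 22 of 60 cells. The matrix genes Ltbp4, Abi3bp (an extracellular matrix protein) and Optc (opticin, a small leucine-rich proteoglycan) were at 3.71, 3.34 (2.24 to 5.16) and 3.52 (2.22 to 5.86), and Fgl2, a secreted fibrinogen-like protein, at 129.8 CPM at day 7 and 404 CPM at day 14 (ratio 3.11, interval 2.44 to 4.00). Also among them were Hk2 (hexokinase 2, the first step of glycolysis) at 36.6 and 88.2 CPM (ratio 2.41, interval 1.51 to 4.01) and Stbd1 (a glycogen-binding protein) at 51.6 and 135 CPM (ratio 2.61, interval 1.77 to 3.97). Dhrs3, an enzyme of retinoid metabolism, Cirbp, a cold-inducible RNA-binding protein, and Perp, a p53 target, were at 3.02 (1.92 to 4.99), 3.00 (1.78 to 5.35) and 3.55 (2.16 to 6.19). Without the deepest cells the ratios of Fgl2, Abi3bp, Optc, Dhrs3, Cirbp and Perp were 2.04, 2.45, 2.42, 2.31, 2.15 and 2.07, and in cells of 10000 to 40000 UMIs they were 1.94, 2.27, 2.28, 2.06, 1.95 and 1.95, so that Fgl2, Cirbp and Perp were below 2-fold there. Without the cells with a Pdgfra UMI Fgl2 and Abi3bp were at 1.54 and 1.93 and so below 2-fold. In the Pdgfra cells Cirbp was at 17.1 and 72.6 CPM, Cdkn1a at 127 and 138 CPM, and Perp at 0.438 and 1.72 CPM. Abi3bp, Dhrs3 and Fgl2 were also higher at day 14 in the Pdgfra cells, at 126, 38.1 and 81.6 CPM at day 7 and 413, 117 and 205 CPM at day 14.

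The broadly held genes lower at day 14 that follow were likewise chosen after their values were seen. Stmn1 (stathmin, which destabilises microtubules and is high in growing cells) was at 213 CPM at day 7 and 9.15 CPM at day 14, in 10 of 22 and 10 of 60 cells, with ratios of 0.0430 (0.0209 to 0.0795), 0.0569 by the mean of cells, 0.0574 without the deepest cells and 0.0862 without the cells with a Pdgfra UMI. Tuba1a (an alpha tubulin) was at 598 and 162 CPM (ratio 0.272, interval 0.227 to 0.324), Tmsb10 (thymosin beta-10, which binds free actin) at 1648 CPM at day 7 and 509 CPM at day 14 (ratio 0.309, interval 0.279 to 0.342), and Lasp1 (an actin-binding LIM protein) at 78.2 and 20.8 CPM (ratio 0.266, interval 0.157 to 0.441). In cells of 10000 to 40000 UMIs Tuba1a and Tmsb10 were at 0.731 and 0.663, and Stmn1 and Lasp1 at 0.0623 and 0.387. Tuba1a and Tmsb10 were thus past 2-fold lower by all 3 measures but not in cells of that depth. Dclk1, a kinase that binds microtubules, was at 0.0676 (0.0311 to 0.131) summed, from 74 and 10 UMIs, and 0.147 by the mean of cells. At day 7, 41.9% of its UMIs lay in 1 cell. Its ratio was 0.242 without the deepest cells, from 9 UMIs on each day. Without the cells with a Pdgfra UMI it was 0.379, from 5 and 6 UMIs. P3h1 (a prolyl hydroxylase of collagen), Sec61a1 (the channel by which secreted proteins enter the ER) and Derl2 (of ER-associated degradation) were at 0.261 (0.152 to 0.436), 0.460 (0.328 to 0.646) and 0.435 (0.277 to 0.679), and without the deepest cells at 0.484, 0.443 and 0.427. Smad5, a transducer of BMP signals, was at 0.423 (0.258 to 0.690) and 0.252 without the deepest cells, and Odc1, the first enzyme of polyamine synthesis, at 0.435 (0.319 to 0.593).

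**Figure D5:**
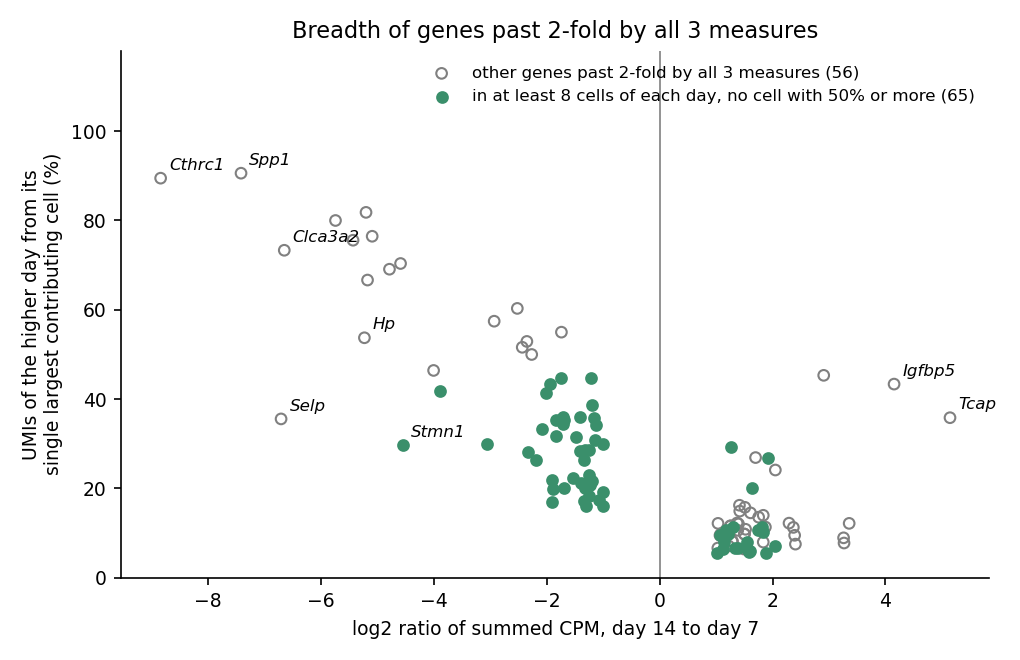
Each point is a gene past 2-fold by all 3 measures, with the log2 ratio of summed CPM on the horizontal axis (a bound at 3 counts where a day was at 0) and, on the vertical axis, the percent of its UMIs of the higher day that came from the single cell with the most. Filled points are the 65 genes found in at least 8 cells of each day with no cell at 50% or more, and open points the other 56. Cthrc1 (89.5%) and Spp1 (90.6%) stand at the top left.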

How the data were processed

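Single-cell libraries from pooled mouse carotid arteries at days 7 and 14 after wire injury were used, 1 library per day. The values are the raw UMI counts deposited by the authors, who ran Cell Ranger, with version 3.0.2 per the file headers. The submitters' processing notes name the build GRCh38, a human one, for these mouse libraries, and no coordinates on the build of the counts are given. The 31053 genes of each matrix were read with scanpy 1.11.5 in Python 3.11.15 (numpy 2.4.6, scipy 1.17.1, pandas 2.3.3), and 0 other columns of per-sample values were present. The day 7 library held 27973418 UMIs in 3001 barcodes and the day 14 library 13329564 in 1138.

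Barcodes were filtered and gated as described at the opening of the report. Doublets were scored with Scrublet, which by its own threshold marked 2 barcodes in each library, under 0.5% in both, so that no barcode was removed in the values reported. Counts were summed over the gated cells of a day and divided by their total (CPM). With 1 library per day no test was run and no p-value is given. Intervals of ratios are exact conditional binomial, those of shares Clopper-Pearson, at 95%, and cover counting error only. A gene was measured with at least 50 UMIs over both days, and called past 2-fold. A gene at 0 on 1 day was set at 3 counts, the limit that a count of 0 allows. The ratios and their intervals were tested on simulated counts. These varied by counting error only, so the test does not cover differences between cells, mice or libraries. Pdgfra cells are filtered barcodes with at most 1 Ptprc UMI, no Cdh5 or Myh11 UMI and at least 1 Pdgfra UMI.

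The members and gene lists were chosen with earlier results of these data known. Genes were named by rule: the 12 highest and 12 lowest summed ratios among genes past 2-fold the same way by all 3 measures, without gate genes, in each list up to 4 members with the most UMIs and any past 2-fold by all 3 measures, the gate genes and the genes the study named for SEM cells. Other genes named were chosen after their values were seen, as were the limits for broadly held genes. The alternatives were a gate at 2%, Myh11 at 3 UMIs or more, mitochondrial UMIs at 5% or less, removal of the barcodes with the highest doublet scores at 0.8% per 1000 barcodes, removal of cells with a Pdgfra UMI, and minimums of 20 or 1 UMIs per gene. The removal of barcodes present in both libraries, of the deepest day 7 cell, and the restriction to cells of 10000 to 40000 UMIs were added after the data were seen. Promoter sequences are from RefSeq (GRCm38.p6), shown for the gate genes with a window and up to 2 further genes with the motif.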

Additional observations from a re-analysis of the deposited data

How the results depend on the processing

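With 1 library per day, no replicate could be left out, and all values rest on 22 and 60 cells. No paired analysis was possible because each day has 1 library and no test was run. The ratio of the smooth muscle cell share of all filtered barcodes was above 1 under every alternative that gave a value, at 4.54 to 10.5. The median log2 ratio of the basement membrane genes (0.39) was -0.17 to 0.44 and changed sign in 3 settings. Here the 50 UMI minimum was applied again within each setting, so that medians can differ from those over the same genes. The causes were not tested. For the contractile genes outside the gate (median log2 ratio 0.60) the median was 0.39 by the mean of cells, 0.14 without cells over 40000 UMIs, 0.21 with the gate at 2%, 1.28 with mitochondrial UMIs at 5% or less, 0.31 without cells with Pdgfra, 0.34 without barcodes in both libraries and 0.0636 in cells of 10000 to 40000 UMIs. For the fibrillar and associated collagens (-0.85) it was, for the same settings in this order, -0.36, -0.18, -0.62, -0.95, -0.58, -0.67 and -0.19, and it was -0.75 with Myh11 at 3 or more, -0.96 without likely doublets, -1.14 and -1.18 with minimums of 20 and 1 UMIs and -0.70 without the deepest day 7 cell. For the immediate early genes (0.80) it was -0.10 by the mean of cells, 0.25 without cells over 40000 UMIs, 1.37 with mitochondrial UMIs at 5% or less, 0.43 without barcodes in both libraries and 0.30 in cells of 10000 to 40000 UMIs. The number of genes at least 2-fold higher (238) was 404 by the mean of cells, 123 without cells over 40000 UMIs, 136 with the gate at 2%, 395 with mitochondrial UMIs at 5% or less, 98 without cells with Pdgfra, 560 and 1020 with minimums of 20 and 1 UMIs, 127 without barcodes in both libraries and 126 in cells of 10000 to 40000 UMIs. The number at least 2-fold lower (226) was 343, 81, 63, 62, 640, 1365, 114 and 87 for these settings without that on mitochondrial UMIs, and 138 without the deepest day 7 cell. The log2 ratio turned above 0 with the gate at 2% and without cells with Pdgfra for C3 (1.56 and 1.51, the latter from 1 UMI at day 7), Cxcl12 (1.25 and 1.41), Dcn (1.45 and 1.66), Fbln2 (0.48 and 0.19), Lum (4.44 and 4.75, the latter from 3 UMIs at day 7) and Thbs1 (1.77 and 2.13, the latter from 8 UMIs at day 7). It also turned for Hmgb2, log2 ratio 1.60 with the gate at 2%, 0.0397 without barcodes in both libraries and 0.82 in cells of 10000 to 40000 UMIs, and for Ifitm3 (0.14 without cells over 40000 UMIs and 0.39 in cells of 10000 to 40000), Nfkbia (0.66 and 0.83 likewise) and Isg15 (0.45 in cells of 10000 to 40000). The medians of the vascular tone, elastic fibre, matricellular and proteoglycan, protease, PDGF and TGF-beta, Notch, interferon and MHC class I, respiratory chain and ribosomal protein genes and of both lists of transcription factors also took both signs over the settings. The median turned as well for the cell cycle genes (0.58 without barcodes in both libraries, 1 gene) and the modulated smooth muscle genes (0.0769 with the gate at 2%, 6 genes). Of 132 genes named by rule outside the gate, 61 were past 2-fold. Of these, 51 had 1 sign in every setting that gave a value, 37 with a value in all 14 settings and 14 with fewer. Genes named for passing 2-fold by all 3 measures had 1 sign over those measures by that choice. The settings also share cells, so these counts are a description and not a test of stability. Rgs5, at a log2 ratio of -0.76 in all cells, was at 6.14 in cells of 10000 to 40000 UMIs, from 1 UMI at day 7.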

Other observations

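Genes of general cell function were a little lower at day 14 in summed counts. Of the 10 heat shock genes, 1 was above 0 and 0 were past 2-fold in either direction in summed counts, with 4 at least 2-fold lower by the mean of cells, 3 without the cells over 40000 UMIs and 2 without the shared barcodes, and with a median log2 ratio of -0.49 summed and -0.55 without the cells over 40000 UMIs. The 1 gene above 0 was Hspb1, a small heat shock protein that binds actin and is abundant in smooth muscle, at 1235 CPM at day 7 and 1939.6 CPM at day 14 (ratio 1.57, interval 1.45 to 1.71). Of 11 measured genes of glycolysis and hypoxia, 1 (Hk2) was at least 2-fold higher and 1 (Pgk1) at least 2-fold lower in summed counts. Over all measured genes the shares were 4.92% higher and 4.67% lower. Pgk1 was at 0.461 summed and 0.942 without the deepest cells. Gapdh and Ldha, which act late in glycolysis, were at 0.611 and 0.513 and did not reach 2-fold. The median of that list was -0.38.

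The 22 nuclear genes of the respiratory chain had a median of -0.22 with none past 2-fold, and -0.03 without the deepest cells. The 76 ribosomal protein genes had a median of -0.38, with 8 above 0 and none past 2-fold, and 0.06 without the deepest cells. Per cell the ribosomal genes took a median of 9.68% of UMIs at day 7 and 9.96% at day 14, with 1 cell of day 7 at 41.0%.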
